A study of Mus musculus with 8 samples.

Results

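The genes described here are the 200 protein-coding genes whose bodies were least covered by regions enriched for BRG1 in Tβ4-primed, injured mouse hearts. They were chosen by that covered share: for each protein-coding gene of at least 10 kb on the 19 autosomes, without an unsequenced base in its body, the percentage of bases inside the deposited regions was computed, and the 200 lowest genes of 12892 were kept, a share of 1.55%. The series held 8 libraries of adult C57BL/6 hearts, aged 10 to 12 weeks by the labels although the paper's methods give a somewhat higher age for infarcted mice, with 2 BRG1 ChIP libraries and 2 input libraries from PBS-primed mice and as many from Tβ4-primed mice. Mice received daily intraperitoneal PBS, or thymosin β4 (Tβ4) at 12 mg per kg, for a week before a myocardial infarction made by tying off a coronary artery for good, were injected again after surgery, and gave their hearts on day 4. Chromatin of the whole heart was precipitated with an antibody to BRG1, so that all cell types of the organ contributed. The values below come from 1 list of regions for the Tβ4-primed hearts, which gives positions only and does not separate the duplicates, so that no value has a replicate error, the depth is unknown and the PBS-primed hearts could not be compared with the Tβ4-primed ones.

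BRG1, encoded by Smarca4, is an ATPase motor of the SWI/SNF complexes, which slide and evict nucleosomes and thereby open DNA to transcription factors. In the heart, BRG1 is known for its part in growth of the embryonic myocardium and in the return of a fetal gene programme under stress. ChIP with such a remodeller often yields broad and weak enrichment, since the complex reaches DNA largely through other proteins.

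All 200 genes had 0 regions in the gene body. Of the 12892 genes, 213 were free of regions, or 1.65%; since the genes were chosen by this very measure, nothing is read from that share. The 13 region-free genes left outside were the shortest ones, because ties were broken in favour of longer genes. Just inside lay Krt72-ps and Prpf19, both of 10.287 kb, and Ssb of 10.285 kb. Just outside lay Cript of 10.261 kb, Esam of 10.242 kb and Cpox of 10.184 kb, all free of regions as well. The first gene with any covered base was Hsd17b7, at 0.0152% of 19.7 kb, followed by Unc45b, which encodes a myosin chaperone of striated muscle, at 0.0487% of 32.9 kb. The median gene had 26.2% of its body inside regions, with quartiles of 17.4% and 35.0%, and the 200 most covered genes began at 66.6%.

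Sequences of 3 promoters are shown, since a remodeller is often sought at the start of a gene and no region reached these starts. They run from 250 bases before to 50 bases after the annotated gene start in mm9, in the direction of transcription, with CG pairs in capitals. Gata2 encodes a transcription factor of blood and endothelium, Nat10 an acetyltransferase of RNA, and Cyp2e1 a cytochrome P450 of the liver. The Gata2 promoter lies at chr6:88143635-88143934 on the plus strand and holds 32 CG pairs, that of Nat10 at chr2:103601378-103601677 on the minus strand with 20 pairs, and that of Cyp2e1 at chr7:147949388-147949687 on the plus strand with 2 pairs.
Gata2 promoter: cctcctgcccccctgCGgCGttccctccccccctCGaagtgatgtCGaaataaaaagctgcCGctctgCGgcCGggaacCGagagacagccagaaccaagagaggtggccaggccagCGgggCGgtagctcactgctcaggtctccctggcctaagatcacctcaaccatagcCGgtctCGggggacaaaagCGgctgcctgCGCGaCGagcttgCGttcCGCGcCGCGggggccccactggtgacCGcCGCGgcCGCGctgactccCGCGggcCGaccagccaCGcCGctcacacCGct
Nat10 promoter: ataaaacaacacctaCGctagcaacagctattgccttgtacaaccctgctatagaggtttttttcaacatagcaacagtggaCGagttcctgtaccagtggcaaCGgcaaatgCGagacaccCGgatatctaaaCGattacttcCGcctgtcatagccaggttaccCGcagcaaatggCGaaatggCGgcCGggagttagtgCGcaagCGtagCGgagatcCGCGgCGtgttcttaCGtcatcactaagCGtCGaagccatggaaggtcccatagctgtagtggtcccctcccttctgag
Cyp2e1 promoter: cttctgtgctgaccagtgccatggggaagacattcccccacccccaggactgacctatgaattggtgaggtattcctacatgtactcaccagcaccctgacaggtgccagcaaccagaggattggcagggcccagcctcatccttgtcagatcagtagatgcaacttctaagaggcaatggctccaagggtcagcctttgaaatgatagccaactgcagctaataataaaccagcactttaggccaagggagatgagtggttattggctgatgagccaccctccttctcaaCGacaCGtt

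Short regions of the list that bound 2 of the genes are shown as well, because they are the measured elements nearest to those bodies. Actl6b, a subunit gene of SWI/SNF itself, began 475 bp downstream of a region of 210 bp at chr5:137994060-137994269, here on the plus strand, which is the shortest length among the autosomal regions. That region consists in part of a run of repeated ggaa units. Gata2 ended 2115 bp upstream of a region of 270 bp at chr6:88159140-88159409, also on the plus strand. CG pairs are in capitals, 3 in the first and 2 in the second.
Region upstream of Actl6b: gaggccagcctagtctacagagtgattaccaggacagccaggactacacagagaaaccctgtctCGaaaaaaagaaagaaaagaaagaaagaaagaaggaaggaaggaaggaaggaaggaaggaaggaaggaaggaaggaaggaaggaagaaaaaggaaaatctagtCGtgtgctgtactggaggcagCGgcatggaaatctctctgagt
Region downstream of Gata2: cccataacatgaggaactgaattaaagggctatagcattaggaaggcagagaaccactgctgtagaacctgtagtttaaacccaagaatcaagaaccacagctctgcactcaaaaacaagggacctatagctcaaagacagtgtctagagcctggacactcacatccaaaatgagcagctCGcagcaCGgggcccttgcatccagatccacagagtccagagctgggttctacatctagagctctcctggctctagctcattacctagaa

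The region-free genes were short. Their median length was 13.4 kb, with quartiles of 11.6 and 15.8 kb, whereas all 12892 genes had a median of 33.5 kb. Among genes of 10 to 12 kb, 77 of 892 had no region in the body, a share of 8.63%. The share was 6.31% from 12 to 15 kb, 2.75% from 15 to 20 kb, 0.705% from 20 to 30 kb and 0.124%, or 3 genes, from 30 to 50 kb. None of the 4571 genes of 50 kb or more was free of regions. The covered share itself varied much less with length, from a median of 22.5% at 10 to 12 kb to 27.2% at 50 kb or more, with Spearman's rho of 0.0987 across the 12892 genes, which are not independent replicates. The 200 most covered genes were likewise short, with a median of 15.5 kb, so that both ends of the ranking held short genes. Of the 200 region-free genes, 181 were shorter than 20 kb, and several values below are therefore also given beside those of all 3631 genes of 10 to 20 kb.

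**Figure D1:**
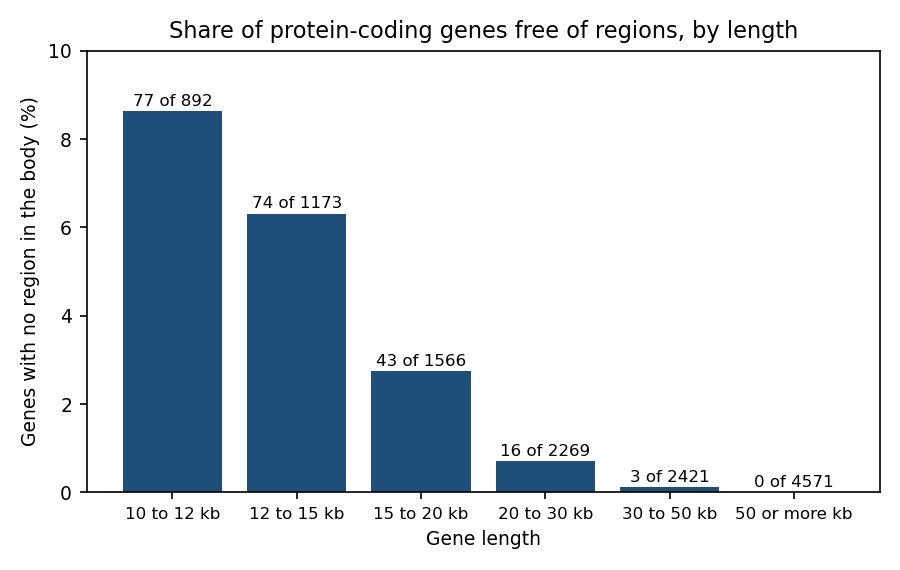
Share of protein-coding genes without a region in the body (bars, in percent) by gene length, with the number of genes above each bar. The share falls from 8.63% at 10 to 12 kb to 0 of 4571 genes at 50 kb or more.

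The longest region-free gene was Nat10, 40.015 kb on chromosome 2 from 103561413 to 103601427. Regions lay 3.33 kb upstream of its start and 0.933 kb beyond its end, and they covered 37.2% of the 50 kb on each side. Aldh1a7, a relative of the retinaldehyde dehydrogenases on chromosome 19 from 20767443, followed with 34.6 kb, and Ubash3a, which encodes a damper of T cell receptor signalling on chromosome 17 from 31344818, with 34.3 kb. These 3 genes were the only ones of the 6992 genes of at least 30 kb without a region. Fbxw24 of 24.9 kb, an F-box gene, and Pm20d1 of 24.1 kb, which encodes an enzyme that joins amino acids to fatty acids, came next. Coq7, for a hydroxylase of ubiquinone synthesis, and Tub, for the tubby protein, measured 23.7 and 23.6 kb. Msrb2, for a mitochondrial repair enzyme of oxidised methionine, measured 23.5 kb. Krt80, a keratin gene of 22.7 kb, had a region only 25 bp beyond its end.

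**Figure D2:**
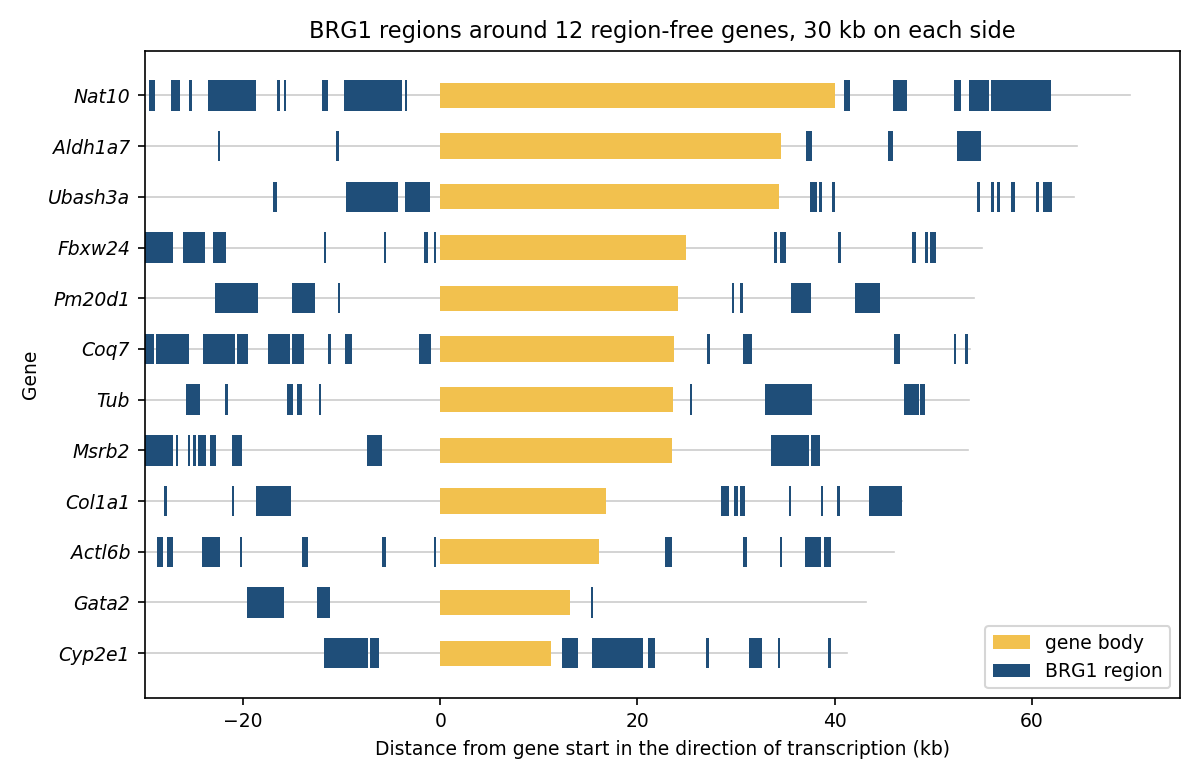
Gene bodies (yellow) and regions of the list (blue) for the 8 longest region-free genes and for Col1a1, Actl6b, Gata2 and Cyp2e1, with 30 kb on each side; the horizontal axis is the distance from the gene start in kb, in the direction of transcription. Regions stand on both sides of every body shown, as close as 0.408 kb at Fbxw24 and as far as 15.1 kb at Col1a1.

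Each gene lay in a stretch between neighbouring regions, and these stretches were longer than the genes. They had a median of 23.7 kb and ranged from 12.0 kb around AU021092 to 49.3 kb around Gm853. The body took up a median of 60.3% of its stretch, from 22.0% at Clec2i to 96.5% at Mmp11. The nearest region lay at a median of 1.95 kb from the body. It was closer than 1 kb for 70 genes and closer than 5 kb for 165 genes, and the smallest distance was 4 bp, downstream of Telo2. A region stood within 1 kb of the start for 32 genes, or 16%, compared with 45.4% of all genes. For the end, the count was 42 genes, or 21%, compared with 43.3%. These shares are partly fixed by how the genes were chosen, since a region across an edge would have counted in the body. Tmem38a had a region ending 32 bp before its start.

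These stretches are set here beside all others. The sequenced autosomes held 491850 stretches between regions with a median of 1.56 kb, of which 46245, or 9.40%, measured at least 10 kb and together made up 30.5% of the sequenced autosomal bases. At least 20 kb was reached by 8187 stretches and at least 40 kb by 302, and the longest had 93.6 kb. The 200 genes occupied 199 of the stretches of at least 10 kb, or 0.430% of them. The single shared stretch, of 25.4 kb on chromosome 9 from 108379290 to 108404699, held Lamb2 and Usp19, which encode the β2 chain of laminin and a ubiquitin-specific protease.

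Among the stretches that held the 200 genes, the 5 longest were those of Gm853, Clec2i, Aldh1a7, C030017K20Rik and Psph. Gm853 and C030017K20Rik lie on chromosome 4, Clec2i on chromosome 6 and Psph on chromosome 5. Clec2i encodes a C-type lectin of immune cells, and its gene of 10.6 kb sat in 48.1 kb without a region, with 24.1 kb free upstream and 13.4 kb downstream. Psph, for the phosphatase that completes serine synthesis, lay in 46.2 kb, and C030017K20Rik in 47.1 kb. At 6 genes, both neighbouring regions were more than 10 kb away: Clec2i, Gm853, Col1a1, Dynlrb2, C030017K20Rik and 1700013F07Rik, of which Dynlrb2 and 1700013F07Rik were singled out after their values were seen. Regions that bounded the 200 genes had a median of 540 bp, the same as regions bounding any autosomal stretch of at least 10 kb, and all autosomal regions had 600 bp. Regions longer than 5 kb were 10 of the 398 bounding regions, or 2.51%, against 4.52% of those at all such stretches.

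**Figure D3:**
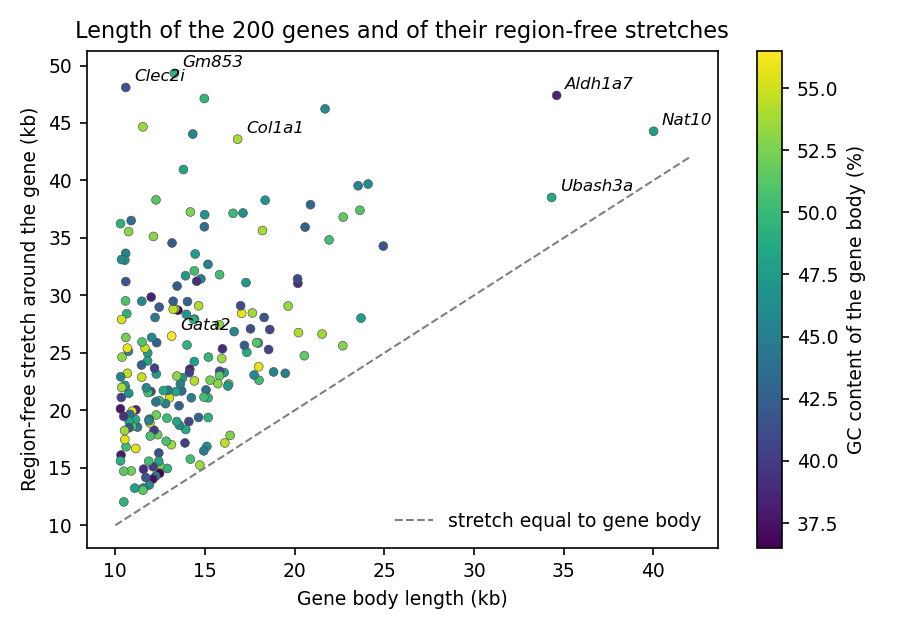
Length of each of the 200 gene bodies (horizontal axis, kb) and of the region-free stretch around it (vertical axis, kb), coloured by GC content; the dashed line marks a stretch as long as the body. Nat10, Aldh1a7 and Ubash3a lie apart at more than 30 kb, and Gm853 and Clec2i combine short bodies with stretches of 49.3 and 48.1 kb.

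Beside the genes, coverage rose with distance toward the level of other genes. In the first 1 kb upstream of the start, 6.66% of the sequenced bases lay inside regions, compared with 26.8% for all genes and 26.2% for those of 10 to 20 kb. Downstream of the end it was 6.68%, compared with 26.7% and 26.3%. A region that crosses an edge would have counted in the body, so that the nearest window is partly fixed by how the genes were chosen. From 1 to 5 kb the shares were 17.5% upstream and 17.1% downstream, and from 5 to 10 kb they were 20.6% and 24.2%. From 10 to 25 kb they reached 23.8% and 27.1%, beside 25.9% and 25.7% for all genes, and from 25 to 50 kb 26.6% and 25.8%, the latter beside 26.3% for all genes. The 200 most covered genes began above that level, with 49.6% in the first 1 kb upstream and 54.4% downstream, and had 25.7% and 23.0% from 10 to 25 kb. The near windows of the 200 genes thus held fewer covered bases than those of all genes, and the windows from 25 kb on held similar shares.

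**Figure D4:**
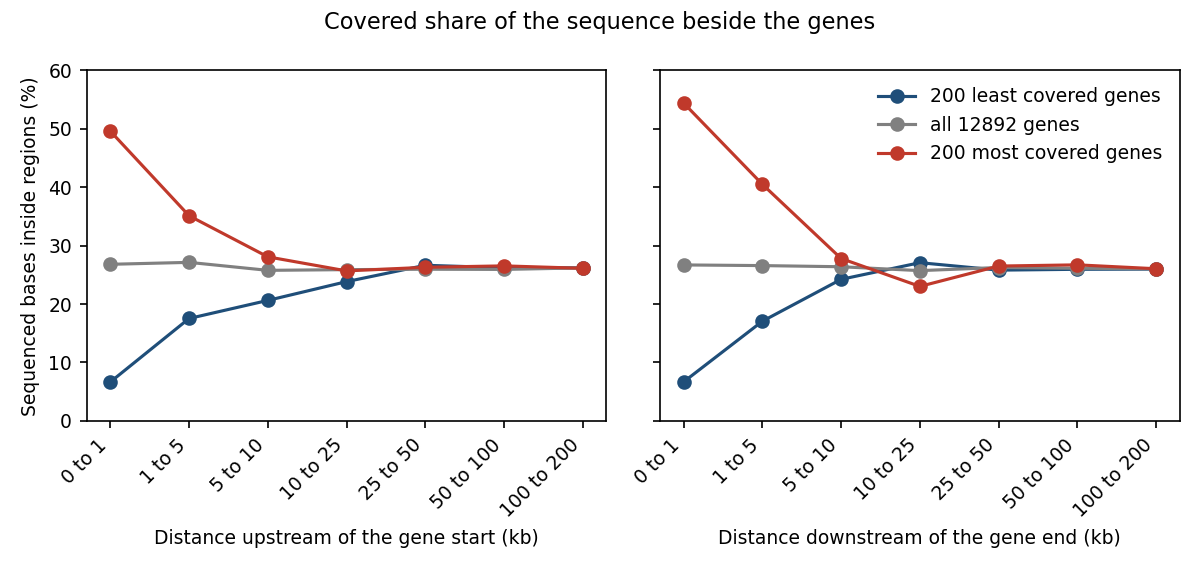
Percentage of sequenced bases inside regions (vertical axis) by distance from the gene start (left) or gene end (right) in kb, for the 200 least covered genes, all 12892 genes and the 200 most covered genes. The curves start at 6.66%, 26.8% and 49.6% upstream and lie between 25.8% and 26.6% from 25 to 50 kb for the first group.

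Taken over 50 kb on each side, the covered share had a median of 24.1% around the 200 genes, with quartiles of 18.4% and 29.6%, and of 25.6% around all genes. It exceeded the median of all genes at 83 of the 200 genes. The highest value, 56.8%, was found around Chchd7, a gene for a mitochondrial protein on chromosome 4, where regions stood 0.325 kb upstream and 5.79 kb downstream. Ppp1r3g, for a subunit that steers a phosphatase to glycogen, had 53.0%, Dhodh, for an enzyme of pyrimidine synthesis, 51.4%, Pex26, for a peroxisome protein, 48.7%, and Ssb, for the La protein that binds RNA ends, 47.0%. The lowest value, 5.05%, was at Gm8923, followed by Slc29a1, which encodes an adenosine transporter, with 5.19%. Crybb2, a lens crystallin gene, had 7.41%, and Gm853 and the Notch ligand gene Dll3 had 7.68% each. Genes without a region therefore lay in surroundings of more than 50% coverage as well as in surroundings of about 5%.

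The GC content of the bodies had a median of 47.7%, above the 44.5% of all genes. Short genes are richer in GC, and all genes of 10 to 20 kb had 47.0%, compared with 47.8% for the 181 region-free genes of that length and 46.2% for the 139 most covered ones. By length class, the medians of the 200 genes and of all genes were 48.1% and 48.0% from 10 to 12 kb and 47.2% and 47.4% from 12 to 15 kb. They were 48.9% and 46.4% from 15 to 20 kb, 47.0% and 45.3% from 20 to 30 kb, and 47.7% and 44.3% for the 3 genes from 30 to 50 kb. The medians were thus close below 15 kb and higher for the region-free genes above it. Within 10 to 20 kb, the share of region-free genes was 3.41% below 40% GC, 4.59% from 40 to 45%, 5.69% from 45 to 50%, 6.16% from 50 to 55% and 6.85% at 55% or more, the last with 10 of 146 genes. These GC classes were not matched for length. From 10 to 12 kb to 15 to 20 kb, the free share fell from 8.63% to 2.75% and the median GC content from 48.0% to 46.4%. The part of length in this rise was not tested. Genes with at least 60% of the body covered went from 8.52% below 40% GC to 4.11% at 55% or more. Spearman's rho of covered share and GC content across the 12892 genes was −0.0929, a weak relation.

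Gata2 had the highest GC content, 56.5% over 13.1 kb, followed by Sh2d5 and Lamb2 with 55.8% each. Csnk1g2, which encodes a casein kinase, had 55.7% and Lmnb2, for lamin B2 of the nuclear envelope, 55.6%. At the other end were Akr1c21, for a steroid dehydrogenase, with 36.5%, and Lrrc19 with 36.5%. Neurod4, a neurogenic transcription factor gene, had 37.2%, Ssb 37.9% and Spa17, for a sperm protein, 38.1%. Exons made up a median of 20.2% of the bodies, and 20.4% for all genes of 10 to 20 kb. The median number of other protein-coding genes centred within 500 kb was 17, compared with 13 for all genes and 19 for those of 10 to 20 kb.

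Sequence present in many copies can leave a gene without regions, since the authors' mapping discarded reads that fitted more than 2 places. Stretches of 50 bases were therefore sampled every 100 bases and counted in mm9; the read length is not stated, so that 50 bases is a choice, and 32 bases moved the medians to 3.77% for the 200 genes and 5.15% for all. A median of 1.63% of the stretches of a region-free gene occurred at more than 2 places, compared with 2.42% for all genes, 1.87% for those of 10 to 20 kb and 1.07% for the 200 most covered genes. At 36 of the 200 genes no sampled stretch was so repeated. More than 10% was found at 7 genes, or 3.50%, compared with 9.42% of all genes and 6.42% of those of 10 to 20 kb. All sampled stretches of Gm8923, a predicted gene on chromosome 2, were repeated, as were 47.5% of those of the defensin gene Defb39, 37.2% of Serpina10, 30% of 4930430F08Rik and 14.2% of Gm3776. At these 5 genes the part of repeated sequence in the missing regions was not tested. For most of the others, the body was nearly all sequence at 1 or 2 places.

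Promoters of the region-free genes held fewer CG pairs than those of all genes, as did those of the most covered genes. In the window printed for Gata2, Nat10 and Cyp2e1, the 200 genes had a median of 11 CG pairs, all genes 17, genes of 10 to 20 kb 13 and the most covered genes 12. The 181 region-free genes of 10 to 20 kb had a median of 12. At least 15 pairs were present in 81 of the 200 promoters, or 40.5%, in 55.2% of all promoters, in 47.4% of those of genes of 10 to 20 kb and in 44.5% of those of the most covered genes. The range was wide, from 0 pairs, as at Crybb2, to 50 pairs at Csnk1g2, so that both kinds of promoter occurred without a region. Matches on either strand to CCAAT were found in 32% of the 200 promoters, 36.6% of all 12892 and 38.0% of those of genes of 10 to 20 kb. For TTGCNNAA, a pattern of the C/EBP family, the shares in the same order were 10.5%, 9.46% and 10.5%, and for TATAAA they were 10%, 8.87% and 9.75%. The Cyp2e1 promoter held CCAAT. A match describes letters in this window and is not a bound site.

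By known function, 162 of the 200 genes were sorted into 12 groups, and 38 were left undescribed. This sorting, and the choice of any gene named below that is not in the rule for named genes, was made after the values were seen, and the group sizes were not set beside those among all genes. Matrix and adhesion genes numbered 9. Col1a1, for a chain of type I collagen, the main collagen of scar tissue, spanned 16.8 kb of chromosome 11 from 94797538 to 94814356 and lay in a free stretch of 43.6 kb, with the nearest regions 15.1 kb upstream and 11.7 kb downstream. Icam1, for an endothelial receptor of leukocytes, had regions at 1.99 and 2.48 kb and 41.3% coverage over 50 kb on each side. The metalloproteinase genes Mmp11 and Mmp25 lay in stretches of 15.2 and 31.8 kb. Mmp11, of 14.7 kb, was held tightly between regions 0.361 kb upstream and 0.167 kb downstream. Adam15, Adam33, Tinagl1, Lamb2 and the protocadherin gene Pcdh18 completed the group.

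Transcription factors numbered 14, of which 6 were zinc finger genes of unknown targets. Tead2, a partner of YAP in the Hippo pathway, spanned 17.9 kb of chromosome 7 from 52471123 within a stretch of 25.9 kb. Heyl, a target of Notch, spanned 16.3 kb of chromosome 4, and Six3, a factor of eye and forebrain, 18.2 kb of chromosome 17 within a stretch of 35.6 kb. Gata2 had its next regions 11.2 kb upstream and 2.12 kb downstream, with 10.4% coverage over 50 kb on each side. Pitx1, a hindlimb factor, and Dmrt3 and Neurod4, of the nervous system, belonged here too. Zfp708 and Zfp458 lie near each other on chromosome 13, whereas Zfp334, Zfp61, Zfp329 and Zfp641 lie on 3 other chromosomes.

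Secreted or surface ligands and antagonists numbered 8, with the lowest median coverage of the surroundings of the 12 groups, 15.4%. Bmp2, a signal of the endocardial cushions, spanned 10.7 kb of chromosome 2 from 133377895 within 25.1 kb free of regions. Wnt6 and Wnt16, ligands of the Wnt pathway, had 16.9% coverage each over 50 kb on each side. Dll3 and Dlk1, unusual ligands of the Notch family, had 7.68% and 13.3%. Gdf6, Efna2 and Ghrh, for a BMP-type ligand, an ephrin and growth hormone-releasing hormone, were the others.

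Receptors and intracellular signalling genes formed a group of 25. Adcy6, a main adenylyl cyclase of heart muscle cells, spanned 17.6 kb of chromosome 15 from 98420425 to 98438064 in a stretch of 28.5 kb. Tnfrsf1a, the gene of a receptor of tumour necrosis factor, had a region 0.480 kb before its start, and S1pr3, for a sphingosine-1-phosphate receptor, had regions at 0.737 and 0.833 kb. Homer3, for a synaptic scaffold protein, had the longest free sequence upstream, 28.7 kb. Gem, for a GTPase that restrains calcium channels, and Hif1an, for the hydroxylase that blunts HIF activity, lay in stretches of 22.9 and 19.02 kb. Cd22, Clec2i, Klrb1f and Ubash3a act in lymphocytes. Trim56 and Traf7 encode ubiquitin ligases.

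Channels, transporters and pumps numbered 12. Tmem38a encodes the TRIC-A channel of the sarcoplasmic reticulum, and its 15.2 kb on chromosome 8 from 75096002 to 75111181 began 32 bp after a region. Cacnb1, for a calcium channel subunit of skeletal muscle, spanned 21.5 kb of chromosome 11. Aqp1, the water channel gene of endothelium, lay in a stretch of 35.1 kb. Slc6a18, Slc29a1 and Slc35e3 are solute carriers with stretches of 22.1, 22.6 and 21.7 kb. Kcnk6, for a potassium leak channel, lay in 16.8 kb, and Atp6v1b1, for a subunit of the vacuolar proton pump, in 27.5 kb. Atp4a encodes the acid pump of the stomach.

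Cytoskeletal and contractile genes numbered 16. Lrrc39, for a protein of the muscle M-band, spanned 20.2 kb in a stretch of 31.4 kb, and Hspb8, for a small heat shock protein of muscle, 14.4 kb in 27.9 kb. The keratin genes Krt80, Krt23 and Krt72-ps lay in 25.6, 32.7 and 36.2 kb. Krt72-ps is named as a pseudogene, although the annotation used here counts it as protein-coding. Pvalb and Ift27, neighbours on chromosome 15, occupied separate stretches of 22.6 and 29.1 kb. Pvalb encodes the calcium buffer parvalbumin and Ift27 a small GTPase of cilia. Dynlrb1 and Dynlrb2, for light chains of dynein, were both free of regions although they lie on chromosomes 2 and 8. Twf2, Myo1a and Tubal3 encode an actin-binding protein, an intestinal myosin and a tubulin.

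The 10 chromatin and chromosome genes included a subunit gene of the SWI/SNF complexes. Actl6b, for the neuronal BAF53B subunit, spanned 16.1 kb of chromosome 5 from 137994745 to 138010810 between regions 0.475 kb upstream, printed above, and 6.74 kb downstream. Lmnb2 lay in 28.4 kb and Rfc5, for a clamp loader subunit of DNA replication, in 18.6 kb. Mbd1 encodes a protein that binds methylated DNA, and Telo2 a chaperone partner of checkpoint kinases. Cenpq, Cenpv and Dsn1 act at centromeres and kinetochores, and Cenpv had 27.4 kb free downstream.

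RNA processing, translation and proteasome genes numbered 14 and had the highest median coverage of the surroundings of the 12 groups, 28.4%. Besides Nat10 and Ssb they included Tardbp, for the RNA-binding protein TDP-43, with a region 0.211 kb after its end. Prpf19 and Slu7 act in splicing and lay in 15.6 and 21.1 kb. Psmc3, for an ATPase of the proteasome, lay in 17.9 kb, and Usp19 had a region 29 bp after its end. Eif5a2, for a translation factor, had 37 CG pairs in its promoter, and Exosc2, for a subunit of the RNA exosome, 17.3 kb free upstream. Genes with housekeeping functions were thus present alongside tissue-specific genes.

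Metabolic genes numbered 26. Cyp2e1, on chromosome 7 from 147949638 to 147960874, lay in 18.5 kb with a region 1.11 kb after its end and 20.3% coverage over 50 kb on each side. G6pc, for the enzyme that releases glucose from liver, lay in 33.1 kb. Dhodh and Umps encode successive enzymes of pyrimidine synthesis, on chromosomes 8 and 16. Nqo1, for a quinone reductase, had 17.1 kb free upstream. Taldo1 of the pentose phosphate pathway and Cidec of lipid droplets lay in 19.1 and 19.2 kb.

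Mitochondrial genes numbered 9. Ndufb2, for a subunit of respiratory complex I, and Mrps22, for a protein of the mitochondrial ribosome, spanned 10.8 and 12.9 kb. Brp44, for a subunit of the pyruvate carrier, spanned 20.2 kb and had a region 0.258 kb before its start. Coq7 had a region 0.959 kb before its start. Vesicle traffic genes numbered 13, with Golga2, for the Golgi protein GM130, the longest at 20.5 kb. Sec14l3 and Sec14l4 are neighbours on chromosome 11 in separate stretches of 14.9 and 37.1 kb. Protease inhibitors and serine proteases numbered 6 and included Serpinb11, Serpina10 and Serpinb9c, in stretches of 25.3, 31.4 and 19.5 kb.

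Chosen relatives of the region-free genes ranged from 9.92% to 93.0% in covered share, where all but 213 of the 12892 genes had some covered base. The comparison took 14 families picked after the values were seen, with some of their relatives, picked by hand, that also had at least 10 kb on an autosome. The lower end of that range follows from this choice, since relatives that were themselves free also occurred. Wnt6 and Wnt16 were both free, and so were Dynlrb1 and Dynlrb2, and Sec14l3 and Sec14l4, which were not among the 14 families. Col1a2, whose product joins that of Col1a1 in type I collagen, had 7 regions over 61.2% of 36.7 kb, and Col3a1 7 regions over 54.5% of 38.2 kb. Another 5 fibrillar collagen genes ranged from 14.6% at Col11a2 to 35.3% at Col5a1. Heyl was free, whereas Hey2, of 10.4 kb on chromosome 10, had 3 regions over 93.0% of its body and the rank 12885 of 12892. Tead2 was free, and Tead3, of similar length with 19.1 kb, was covered at 62.2%, Tead1 at 24.1% and Tead4 at 17.2%. Actl6b was free over 16.1 kb, and its paralogue Actl6a had 7 regions over 48.4% of 18.4 kb.

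Aldh1a7 was free, whereas its neighbour on chromosome 19, Aldh1a1, was covered at 49.4%, Aldh1a2 at 50.1% and Aldh1a3 at 43.1%. Gata2 contrasted with Gata3 at 9.92%, Gata4 at 31.2% and Gata6 at 38.6%. Bmp2 contrasted with Bmp6 at 12.4%, Bmp5 at 20.3% and Bmp7 at 32.6%. Adcy6 and Tmem38a were free and their relatives Adcy5 and Tmem38b, over 151 and 36.0 kb, had 25.3% and 22.2%. Lmnb2 was free, and Lmna and Lmnb1 had 31.7% and 30.1%. Wnt6 was free, and Wnt10a, which lies next to it on chromosome 1, had 3 regions over 45.2% of 12.7 kb. Most relatives were longer than the region-free gene, and longer genes were less often free of regions, as the plot by length shows.

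**Figure D5:**
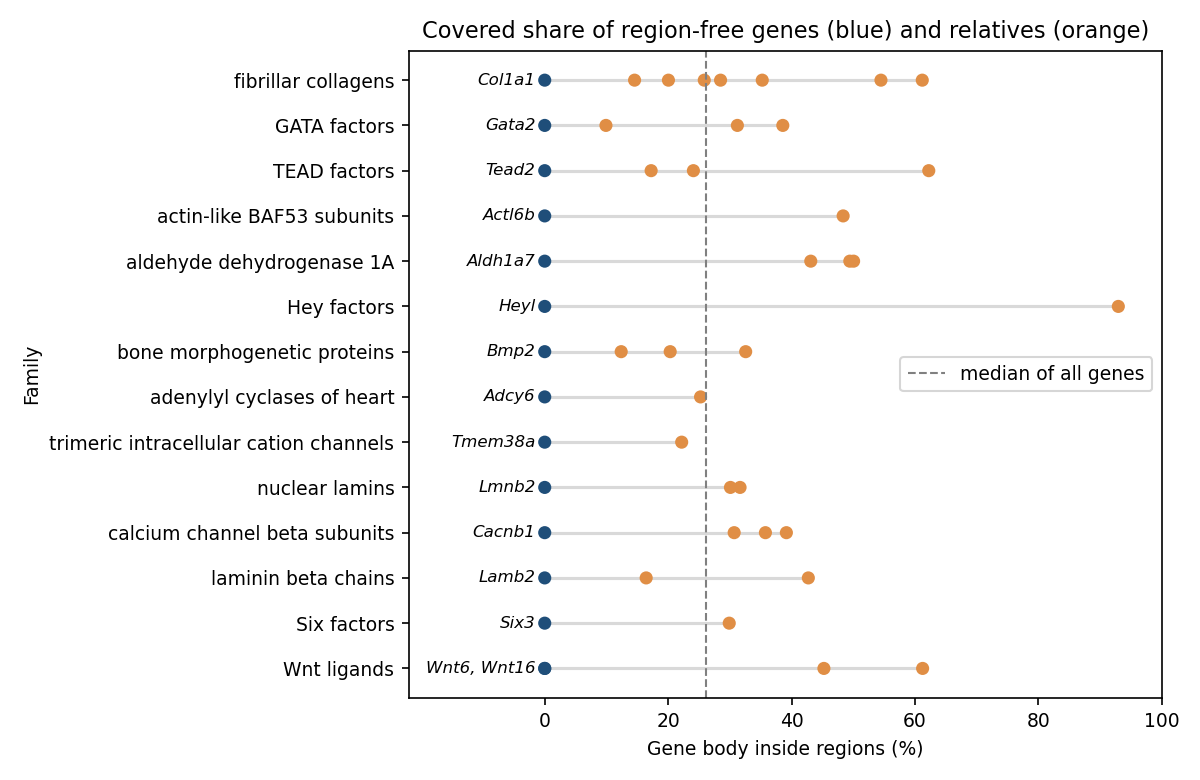
Percentage of the gene body inside regions (horizontal axis) for 14 families chosen after the values were seen, with region-free genes named and in blue and chosen relatives of at least 10 kb in orange; the dashed line is the median of all genes, 26.2%. These relatives range from 9.92% at Gata3 to 93.0% at Hey2.

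Lists of genes that bear on the heart are described by counts and median covered share. All 12892 genes had a median covered share of 26.2%, and 1.55% of them were among the 200. None of the 20 eligible sarcomere and Z-disc genes (median 30.9%), 12 epicardial genes (36.7%), 8 cardiac transcription factor genes (28.5%), 13 endothelial genes (21.1%), 9 smooth muscle genes (21.6%) and 9 macrophage and neutrophil genes (23.2%) was among them. In the same order, only 4, 2, 1, 3, 2 and 3 of these genes measured 10 to 20 kb, where 2.75% to 8.63% of all genes were free. Longer genes were rarely free, so nothing is read from these counts. Of 20 fibroblast and matrix genes, with a median of 31.7%, 1 was, Col1a1. Of 26 eligible SWI/SNF subunit genes, with a median of 25.7%, 1 was, Actl6b, and of 11 polycomb genes 0. In these last lists, 5 fibroblast and matrix, 7 SWI/SNF and 0 polycomb genes measured 10 to 20 kb. Among 34 marker names of cardiac and immune cell types, with Adgre1 and Emr1 standing for the same gene, 26 were eligible and Col1a1 alone was among the 200. The lists are not complete, so that a count of 0 holds for the listed genes only. Lrrc39 of the muscle M-band, and Aqp1 and Icam1 of endothelium, were among the 200 but on none of these lists. A list of regions does not show which cell type a region came from.

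Over all 36 lists, those of the heart included, 21 lists named 31 of the 200 genes. Of 18 eligible neuronal genes 0 were free of regions, beside 1.65% of all 12892 genes, and 0 of the 18 measured 10 to 20 kb. Of 9 keratin genes 3 were free and 0 belonged to the 200 most covered genes, with a median of 15.9% for the list. Of 39 serpin genes 3 were free and 4 most covered, with a median of 26.8%. In these 2 lists, 8 keratin and 26 serpin genes measured 10 to 20 kb, where 2.75% to 8.63% of genes were free, depending on length. The free keratin gene Krt80, of 22.7 kb, lay outside this range, among genes of 20 to 30 kb, of which 0.705% were free. Among 249 zinc finger genes named Zfp, 6 were free and 11 belonged to the 200 most covered genes. Among 285 solute carriers, 3 were free and 2 most covered. Olfactory receptors and vomeronasal receptors, with 16 and 113 eligible genes, had 0 free genes and medians of 36.3% and 24.4%. Of 21 proteasome, 28 splicing and 34 replication and repair genes, 1 each was free, and these were Psmc3, Prpf19 and Rfc5. The counts are small, and no list was tested against all genes.

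The region-free genes lay on all 19 autosomes, from 3 of 521 eligible genes on chromosome 14 to 20 of 1085 on chromosome 2 and 20 of 853 on chromosome 4. The share per chromosome ran from 0.576% on chromosome 14 to 2.70% on chromosome 13, while the median covered share of all genes stayed between 24.7% and 27.6% on every autosome. Most of the 200 genes, 138, had no other of them within 1 Mb. The other 62 formed 27 groups, 22 of them pairs. The largest group, on chromosome 10 from 79642227 to 80986970, held Efna2, Csnk1g2, Lmnb2, Sgta and Gna15 over 1.34 Mb, and the next, on chromosome 7, held Dll3, Capn12, Kcnk6 and 4930432E11Rik over 1.28 Mb. Within these groups the genes occupied separate stretches, apart from Lamb2 and Usp19.

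Absence of a region is not absence of BRG1. The list carries no height or depth, and a gene without a region may still have signal below the authors' threshold, which was not varied. What counts as a region depends on the authors' call, whose exact form is not known. Neither the spread between duplicates nor the PBS-primed hearts entered these values.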

How the data were processed

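BRG1 ChIP and input libraries were mapped by the authors with Bowtie 1.0.0 to mm9, and regions were called with MACS2 2.0.10, by the submitters' processing notes and the paper's methods. The deposited list holds 524614 regions, each with its start and end in bp and no count or score. The paper's methods name the bdgcomp function, but the deposited list is named like a bdgdiff output for 1 condition at a cutoff of 3.0; which was used, and how duplicates were combined, is not known. Groups were taken from the labels. Here, genes of the GENCODE annotation of mm9 were ranked by the share of body bases inside regions, and regions, flanks, GC content, promoters and repeated stretches of 50 bases were measured with Python 3.11.15, numpy 2.4.6, pandas 2.3.3, scipy 1.17.1 and numba 0.67.0. Flanks count sequenced bases only. Counting was tested on simulated data against bedtools 2.31.1. Members and lists were chosen with earlier results of these data known. Named genes are the 10 longest, those of the 5 longest stretches, 3 on each side of the threshold, the 5 highest and lowest in GC content and in covered flanks, the 5 most repeated, and members of 36 gene lists; some of these are not reported. No test was made, because the genes were chosen by the same list. Alternatives changed the regions, the measure, the gene set, the ties, the stretch length and the flank width.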

Additional observations from a re-analysis of the deposited data

How the results depend on the processing

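Of 48 recomputed values, 37 stayed within 1.5 times the count or inside the 95% interval of the median, and 11 moved. Counting regions per kb, joining regions within 500 bp and a minimum length of 5 kb could not change the 200 genes, since ties favoured longer genes without a region, so that their equal values say nothing of stability; stretch length and flank width did not choose genes again. Choosing by the body with 5 kb on each side left 92 genes without a region in the body, raised the median length to 14.6 kb and the median multi-copy share to 1.94%, and lowered the covered share of flanks to 21.8%; 89 genes were shared with the main choice. A minimum length of 20 kb left 19 region-free genes, and the 200 genes then chosen had medians of 25.8 kb and 2.38% multi-copy share. Joining regions within 500 bp raised the covered share of flanks to 25.6%. Flanks of 10 kb gave 14.6% and flanks of 200 kb 25.5%, and stretches of 32 bases a multi-copy share of 3.77%. The cause of these shifts was not tested. The median GC content stayed between 46.5% and 48.2% in every alternative run. Ties broken by symbol kept 187 of the 200 genes, chromosome X 195 and a limit on repeated sequence 193. The interspersed repeat share was not run, because the reference marks no repeats, and no replicate could be left out, because the list does not separate the duplicates. No paired analysis was possible because the list is a single set of regions with no pairs of samples. The unknown depth limits how far a missing region can be read.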
